A study of Arabidopsis thaliana with 6 samples.

Results

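The genes described here are 42 nuclear genes of photosynthesis, out of 32420 loci in a table of small RNAs bound to ARGONAUTE1 (AGO1) in Arabidopsis thaliana. They were taken by locus identifier from a list of genes by function. The list held 4 antenna genes of photosystem I (LHCA1 to LHCA4), 9 genes of the trimeric photosystem II antenna (5 LHCB1 genes named CAB1, CAB2, CAB3, LHB1B1 and LHB1B2, 3 LHCB2 genes and LHCB3), 5 genes of its monomeric antenna (LHCB4 to LHCB6) and PSBS. It also held 12 genes of photosystem I subunits, 6 of photosystem II subunits, 4 genes of the small subunit of Rubisco (RBCS) and RCA, which encodes Rubisco activase. All 42 were present in the table, and 41 had at least 1 read. The gene without a read was LHCB4.3.

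The light-harvesting proteins bind chlorophyll and pass the energy of absorbed light to the reaction centres of the photosystems, and PSBS switches the photosystem II antenna to the release of excess energy as heat. Rubisco fixes carbon dioxide in the Calvin-Benson cycle. In green tissue the mRNAs of the antenna and RBCS genes are among the most abundant of the cell. AGO1 carries miRNAs and many siRNAs, and small RNAs cut from an mRNA can guide AGO1 back to transcripts of the same sequence. The values below count small RNA reads that map to a gene and do not measure its mRNA.

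Small RNAs were recovered with an AGO1 antibody from the aerial parts of 20-day-old untreated plants, grown for 6 days on MS medium and 14 days on soil and collected at 15:00. The genotypes were the triple mutant ein5 dcl4 dcl2 (alleles ein5-1, dcl4-2 and dcl2-1), the double mutant ein5 dcl4 (ein5-1 and dcl4-2) and the wild type Col-0, with 2 libraries each that the series describes as biological replicates. Both mutants thus carry mutations in EIN5, a cytoplasmic exonuclease of mRNA decay, and in DCL4, a Dicer-like nuclease that makes siRNAs, and they differ in DCL2, a second such nuclease. Each mutant combination was represented by 1 allele per gene, and how many plants entered a library is not given in the sources used here. In whole aerial parts, fewer cells that make a small RNA and less of it per cell cannot be told apart.

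The authors deposited 1 mean value per locus and genotype, from which the whole reads of both libraries were recovered. The 2 libraries of a genotype are called a and b, because their replicate numbers are unknown. They held 1102996 and 843408 reads in ein5 dcl4 dcl2, 1292727 and 836879 in ein5 dcl4, and 1217707 and 957043 in Col-0. A read was worth 1.71 and 1.9 deposited units in ein5 dcl4 dcl2, 1.92 and 2.79 in ein5 dcl4, but 0.185 and 0.257 in Col-0. The total behind this scale is not given, so results against Col-0 were also computed under other scalings. Protein-coding loci took 1.35% and 1.54% of the reads in ein5 dcl4 dcl2, 95.1% and 94.0% in ein5 dcl4, and 15.9% and 14.6% in Col-0, while miRNA loci took 96.4% and 96.0%, 3.69% and 4.80%, and 65.5% and 68.2% in the same order of genotypes. The part of this shift in each member's difference was not tested. Small RNA reads at the mutated genes do not measure their mRNA and do not check the genotypes. DCL2 had 0 and 0 reads in ein5 dcl4 dcl2, 0 and 2 in ein5 dcl4, and 1 and 0 in Col-0. DCL4 had 4 and 2, 4 and 8, and 0 and 4 reads in the same order of genotypes, and EIN5 had 0 and 0, 0 and 1, and 26 and 5. DCL4 thus had few reads in every genotype, with those of ein5 dcl4 dcl2 within the range of Col-0, while EIN5 had nearly all of its reads in Col-0. Since small RNA reads do not measure mRNA, the labelled tissue was not checked against marker genes.

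Close copies within the LHCB1, LHCB2 and RBCS families share stretches longer than a small RNA, so a read from such a stretch fits every copy. The stretches below are shown because they limit what a value of a single copy means. Each is coding sequence within 1 exon, read from the RefSeq assembly TAIR10.1 and written in the direction of transcription. Capitals mark the longest run that all genes of the family hold in common, of 35 bases in LHCB1, 38 in LHCB2 and 44 in RBCS, and the lower case letters are 30 bases on either side. The LHCB1 run occurs 5 times in the genome. The LHCB1 stretches lie at chr1:10478701-10478795 on the plus strand (CAB1, AT1G29930), chr1:10475168-10475262 on the minus strand (CAB2, AT1G29920), chr1:10472522-10472616 on the minus strand (CAB3, AT1G29910), chr2:14525445-14525539 on the plus strand (LHB1B1, AT2G34430) and chr2:14522795-14522889 on the minus strand (LHB1B2, AT2G34420).
CAB1: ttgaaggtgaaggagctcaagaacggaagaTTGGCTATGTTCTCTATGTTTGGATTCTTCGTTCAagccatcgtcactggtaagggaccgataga
CAB2: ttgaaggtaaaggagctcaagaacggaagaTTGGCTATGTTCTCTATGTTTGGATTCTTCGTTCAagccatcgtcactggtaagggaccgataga
CAB3: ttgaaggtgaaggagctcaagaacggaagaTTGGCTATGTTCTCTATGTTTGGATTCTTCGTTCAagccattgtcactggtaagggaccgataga
LHB1B1: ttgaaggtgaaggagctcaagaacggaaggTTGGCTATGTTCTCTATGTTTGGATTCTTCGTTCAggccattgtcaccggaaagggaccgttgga
LHB1B2: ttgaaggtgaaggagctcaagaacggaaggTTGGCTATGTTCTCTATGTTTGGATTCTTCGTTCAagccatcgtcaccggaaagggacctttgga

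The LHCB2 stretches lie at chr2:1823747-1823844 on the minus strand (LHCB2.1, AT2G05100), chr2:1799734-1799831 on the minus strand (LHCB2.2, AT2G05070) and chr3:10256526-10256623 on the plus strand (LHCB2.3, AT3G27690), and their run occurs 3 times in the genome. LHCB2.1 and LHCB2.2 are alike over the whole stretch, while LHCB2.3 differs from both outside the capitals.
LHCB2.1: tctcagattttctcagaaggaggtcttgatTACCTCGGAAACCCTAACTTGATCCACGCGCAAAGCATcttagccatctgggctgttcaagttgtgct
LHCB2.2: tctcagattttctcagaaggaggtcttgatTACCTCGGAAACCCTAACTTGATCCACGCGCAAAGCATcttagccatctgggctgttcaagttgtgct
LHCB2.3: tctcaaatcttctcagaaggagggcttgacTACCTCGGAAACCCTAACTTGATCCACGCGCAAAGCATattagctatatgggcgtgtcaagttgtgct

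The RBCS stretches lie, all on the minus strand, at chr1:25048481-25048584 (RBCS1A, AT1G67090), chr5:15384369-15384472 (RBCS1B, AT5G38430), chr5:15381222-15381325 (RBCS2B, AT5G38420) and chr5:15377520-15377623 (RBCS3B, AT5G38410), and their run occurs 4 times in the genome.
RBCS1A: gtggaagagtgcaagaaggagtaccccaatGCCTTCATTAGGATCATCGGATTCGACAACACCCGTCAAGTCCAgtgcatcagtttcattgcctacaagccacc
RBCS1B: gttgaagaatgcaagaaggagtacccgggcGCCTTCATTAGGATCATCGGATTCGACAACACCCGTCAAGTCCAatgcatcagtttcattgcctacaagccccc
RBCS2B: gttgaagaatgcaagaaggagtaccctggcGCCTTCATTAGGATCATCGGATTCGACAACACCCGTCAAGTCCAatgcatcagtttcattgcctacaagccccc
RBCS3B: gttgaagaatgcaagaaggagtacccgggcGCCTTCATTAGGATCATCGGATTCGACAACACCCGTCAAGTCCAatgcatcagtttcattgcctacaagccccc

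Over whole transcripts, the share of 21-base words that also occur elsewhere in the genome ran from 29.3% in LHB1B1 to 44.4% in CAB1 among the LHCB1 genes. It was 42.4% in LHCB2.1 and 47.1% in LHCB2.2, most of it shared between this pair, but 3.94% in LHCB2.3. In the RBCS genes it ran from 9.13% in RBCS1A to 42.4% in RBCS2B. LHCB3 (AT5G54270, chr5:22038165-22039568, plus strand) had 1.64%, LHCB5 (AT4G10340, chr4:6408007-6409849, plus strand) 0.0730% and LHCA4 (AT3G47470, chr3:17493343-17495033, minus strand) 0%. How the authors counted a read that fits several genes, and whether they used its strand, is not given in the sources used here. Values of LHCB1, LHCB2 and RBCS copies may therefore not be independent of each other. Of the genes with at least 20 reads in a genotype, CAB1, LHB1B2, LHCB3, LHCA4, PSAG, PSBR and RCA overlap an annotated gene on the opposite strand, whose reads could be among theirs if strand was not used, and so do LHCB2.3, LHCB4.2, LHCB6, PSAE-1, PSAE-2, PSAH-1, PSAH2, PSAN and PSBP-1. PSAD-2 and PSBP-1 overlap a gene on their own strand.

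The members took a small part of all AGO1-bound reads. Together they had 176 and 184 reads in ein5 dcl4 dcl2, 618 and 420 in ein5 dcl4, and 394 and 372 in Col-0. As a share of all reads in the table, which does not depend on the deposited scale, this was 0.0160% and 0.0218% in ein5 dcl4 dcl2, 0.0478% and 0.0502% in ein5 dcl4, and 0.0324% and 0.0389% in Col-0. The exact (Clopper-Pearson) 95% intervals, which cover counting error only, were 0.0137 to 0.0185% and 0.0188 to 0.0252% in ein5 dcl4 dcl2, 0.0441 to 0.0517% and 0.0455 to 0.0552% in ein5 dcl4, and 0.0292 to 0.0357% and 0.0350 to 0.0430% in Col-0. The genotypes did not overlap, and ein5 dcl4 was highest. As a share of protein-coding reads alone the order turned, with means of 1.30% in ein5 dcl4 dcl2, 0.0518% in ein5 dcl4 and 0.235% in Col-0. With 2 libraries a genotype, an exact permutation test of such a share cannot fall under 0.05, so none is given.

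The reads of the trimeric antenna genes and those of the other members were distributed differently over the genotypes. LHCB1, LHCB2 and LHCB3 genes, which encode the main light-harvesting complex of photosystem II, had 74 and 78 reads in ein5 dcl4 dcl2, 420 and 267 in ein5 dcl4, and 178 and 122 in Col-0. Their share of the table was 0.00671% and 0.00925% in ein5 dcl4 dcl2, 0.0325% and 0.0319% in ein5 dcl4, and 0.0146% and 0.0127% in Col-0, so both ein5 dcl4 libraries stood above all others. The other 33 members had 102 and 106 reads in ein5 dcl4 dcl2, 198 and 153 in ein5 dcl4, and 216 and 250 in Col-0. Their shares of 0.0153% and 0.0183% in ein5 dcl4 overlapped those of 0.0177% and 0.0261% in Col-0, and both were above the 0.00925% and 0.0126% in ein5 dcl4 dcl2.

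**Figure D1:**
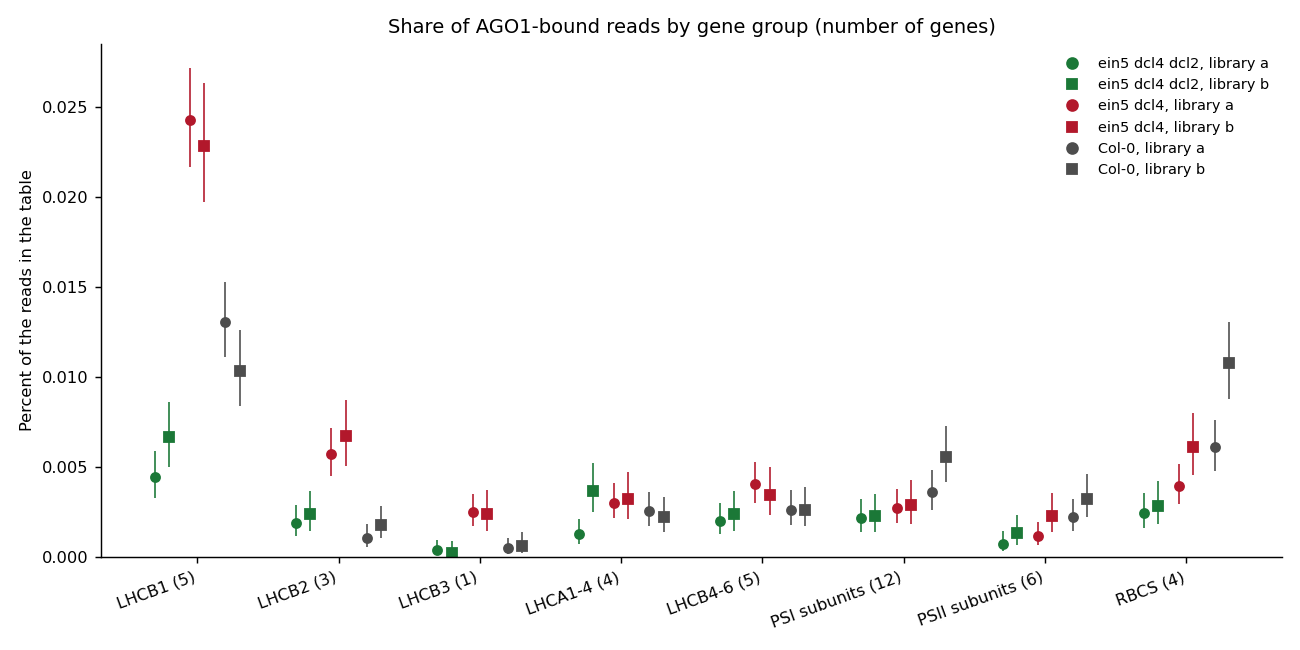
Share of all table reads (percent, vertical axis) held by each group of member genes in each library, with exact 95% intervals for counting error as bars; ein5 dcl4 dcl2 is green, ein5 dcl4 red and Col-0 grey, with circles for library a and squares for library b. The LHCB1 genes hold the largest share in ein5 dcl4, with a mean of 0.0236% there against 0.00554% in ein5 dcl4 dcl2 and 0.0117% in Col-0, while the RBCS genes (0.00502% in ein5 dcl4 and 0.00842% in Col-0) and the photosystem I genes (0.00279% and 0.00458%) have a lower mean in ein5 dcl4.

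Per kilobase of transcript, the order of the genes within a genotype differed between genotypes. In ein5 dcl4 dcl2 the highest levels were 23.6 and 20.1 units per kb for CAB1, 16.3 and 27.3 for LHB1B2, and 22.9 and 18.0 for RBCS1A, which overlapped each other. In ein5 dcl4 they were 145 and 104 units per kb for LHB1B2, 125 and 107 for CAB1, 100.2 and 100.3 for CAB3 and 84.5 and 89.1 for CAB2. LHB1B2 and CAB1 overlapped there, and CAB3 lay above CAB2 in both libraries. In Col-0 the highest were RBCS1A with 6.57 and 10.3 units per kb, CAB1 with 5.72 and 8.55 and PSAG with 3.09 and 8.23, again with overlap. LHCB2.2 ranked 4 of 42 in ein5 dcl4 dcl2, 5 in ein5 dcl4 and 21 in Col-0, and LHCB3 ranked 22, 6 and 19 in the same genotypes. PSAG, a photosystem I subunit at the docking side of its antenna, ranked 12, 13 and 3.

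Setting ein5 dcl4 against Col-0 asks which genes gain AGO1-bound small RNAs when EIN5 and DCL4 are both lost. Differences are on the log2 scale of deposited units plus 1, tested with limma over all loci averaging 1 unit or more, and a gene was called at an adjusted p under 0.05. Of the 37 members that passed this filter, 25 were higher in ein5 dcl4 and 0 lower. At an unadjusted p under 0.05 limma gave 28 higher and 0 lower. With voom weights 34 were higher and 0 lower at an adjusted p under 0.05. In the limma fit that called 25 members, 38.7% of all loci tested and 55.4% of protein-coding loci were called higher, and 6.45% and 2.39% lower. Such shares were not computed for the unadjusted and voom counts, nor for those below with 10 reads or without a library. Those counts therefore have no share to be read against. The median difference was 2.63 over the 37 members, 2.13 over protein-coding loci and 1.49 over all loci. The filter is a mean of units, and a read was worth most in ein5 dcl4. It thus favoured loci with reads there, among members and protein-coding loci alike. With a filter of at least 10 reads in all instead, 24 of 34 members were higher and 0 lower. The members' count was near that of protein-coding loci, and what follows is about how they differed among themselves. Without library a of Col-0 10 members were called higher, and without its library b 8. LHCB4.3, PSAE-2, PSAH-1, PSAH2 and PSBQA were below the filter, with 8 reads or fewer over the 6 libraries.

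**Figure D2:**
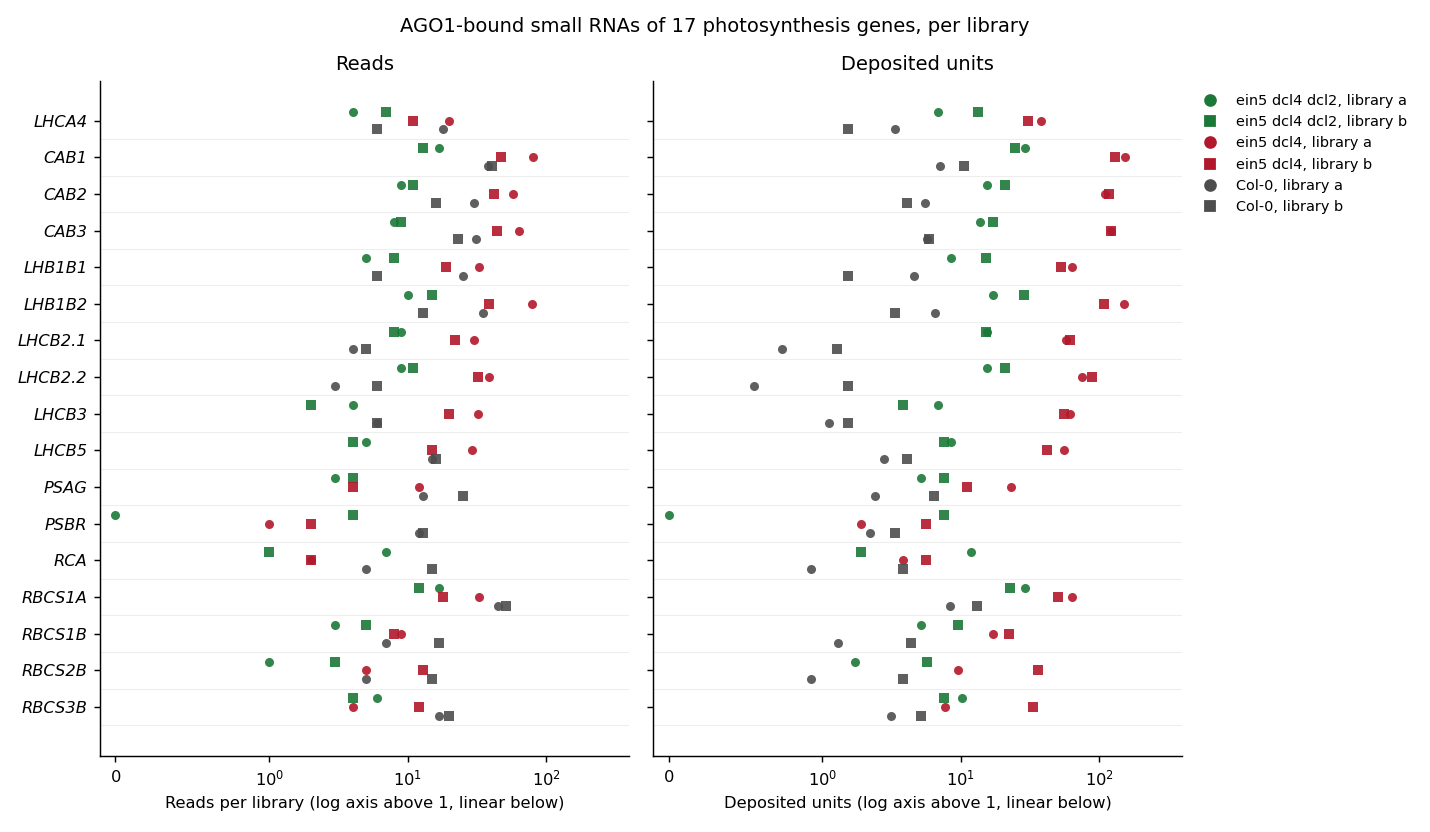
Reads (left) and deposited units (right) of the 17 member genes with at least 20 reads in a genotype, in each of the 6 libraries, on an axis that is logarithmic above 1 and linear below; ein5 dcl4 dcl2 is green, ein5 dcl4 red and Col-0 grey, with circles for library a and squares for library b. In units the ein5 dcl4 libraries of the LHCB1 genes lie above 50 and all Col-0 libraries below 11, whereas PSBR and RCA overlap between genotypes.

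The 5 LHCB1 genes, which encode the most abundant antenna protein, were all higher in ein5 dcl4, by 3.89 to 4.50 on the log2 scale. CAB1 had 80 and 47 reads in ein5 dcl4 and 38 and 41 reads in Col-0, or 153 and 131 units against 7.04 and 10.5 units. CAB2 had 58 and 42 reads (111 and 117 units) in ein5 dcl4 and 30 and 16 reads (5.55 and 4.11 units) in Col-0. CAB3 had 64 and 44 reads (122.6 and 122.7 units) in ein5 dcl4 and 31 and 23 reads (5.74 and 5.90 units) in Col-0. For these genes of 1 cluster on chromosome 1 the units of the 2 genotypes were far apart, and the reads were higher in ein5 dcl4 as well. The other 2, LHB1B1 and LHB1B2, are neighbours on chromosome 2. LHB1B1 had 33 and 19 reads (63.2 and 53.0 units) in ein5 dcl4 and 25 and 6 reads (4.63 and 1.54 units) in Col-0. LHB1B2 had 79 and 39 reads (151 and 109 units) in ein5 dcl4 and 35 and 13 reads (6.48 and 3.34 units) in Col-0. Again no library of one genotype fell among those of the other in units, but in reads library b of ein5 dcl4 was below library a of Col-0 for LHB1B1 and just above it for LHB1B2. The differences were 3.89 ± 0.31 for CAB1 (SE; limma adjusted p = 0.00174), 4.31 ± 0.31 for CAB2 (0.00142), 4.18 ± 0.28 for CAB3 (0.00112), 3.96 ± 0.52 for LHB1B1 (0.00530) and 4.50 ± 0.44 for LHB1B2 (0.00273). Without library b of Col-0, LHB1B1 was no longer called, with a limma adjusted p of 0.0516.

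LHCB2.1, LHCB2.2 and LHCB3, the other genes of the trimeric antenna with at least 20 reads, had few reads in Col-0 and many in ein5 dcl4. LHCB2.1 had 30 and 22 reads (57.5 and 61.4 units) in ein5 dcl4 and 4 and 5 reads (0.741 and 1.28 units) in Col-0. LHCB2.2 had 39 and 32 reads (74.7 and 89.2 units) in ein5 dcl4 and 3 and 6 reads (0.555 and 1.54 units) in Col-0. LHCB3, whose protein joins LHCB1 and LHCB2 in trimers, had 32 and 20 reads (61.3 and 55.8 units) in ein5 dcl4 and 6 and 6 reads (1.11 and 1.54 units) in Col-0. For all 3 genes, every ein5 dcl4 library exceeded every Col-0 library in reads and in units. The differences were 4.92 ± 0.31 for LHCB2.1 (SE; limma adjusted p = 0.000973), 5.38 ± 0.39 for LHCB2.2 (0.00139) and 4.68 ± 0.38 for LHCB3 (0.00178), and each of the 3 was called in all 15 alternative settings tried. LHCB2.3, the copy on chromosome 3, had 5 and 2 reads (9.58 and 5.58 units) in ein5 dcl4 against 6 and 6 reads (1.11 and 1.54 units) in Col-0. Its difference of 1.85 ± 0.51 passed the test (limma adjusted p = 0.0366), but its reads were fewer in ein5 dcl4, so its direction depends on the scale.

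Among the remaining antenna genes, LHCA4 and LHCB5 had at least 20 reads in a genotype. LHCA4, an antenna protein of photosystem I, had 20 and 11 reads (38.3 and 30.7 units) in ein5 dcl4 and 18 and 6 reads (3.33 and 1.54 units) in Col-0. LHCB5, a monomeric antenna protein next to the photosystem II core, had 29 and 15 reads (55.5 and 41.8 units) in ein5 dcl4 and 15 and 16 reads (2.78 and 4.11 units) in Col-0. Units did not overlap for either gene, while reads did. LHCA4 was higher by 3.41 ± 0.47 (SE; limma adjusted p = 0.00597) and LHCB5 by 3.49 ± 0.34 (0.00272), and without library b of Col-0 LHCA4 missed the threshold with a limma adjusted p of 0.0669. LHCA1, LHCA2, LHCB4.1, LHCB4.2 and PSBS were called higher as well, each on 5 to 19 reads in the 2 libraries of a genotype together. In ein5 dcl4 and Col-0, LHCA1 had 11 and 11 such reads, LHCA2 12 and 11, PSBS 5 and 5, LHCB4.1 9 and 6, and LHCB4.2 19 and 11. For LHCA1, LHCA2 and PSBS the reads were thus alike, and the larger worth of a read turned them into more units. PSBS also passed the filter only through ein5 dcl4. LHCA3 and LHCB6 were not called, with limma adjusted p of 0.0566 and 0.0938.

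Photosystem subunit genes were called in part. Of 9 photosystem I genes tested, 5 were higher (PSAD-1, PSAD-2, PSAL, PSAN and PSAO), and of 5 photosystem II genes 2 were (PSBO1 and PSBO2, which encode the protein that stabilises the manganese cluster of water oxidation). In both libraries together, PSAL had 4 reads in ein5 dcl4 and 8 in Col-0, PSAO 8 and 9, PSAN 5 and 4, PSAD-1 9 and 7, PSAD-2 4 and 2, PSBO1 12 and 9, and PSBO2 8 and 5. PSAD-2 and PSBO2 averaged under 1 unit in both other genotypes and passed the filter only through ein5 dcl4. With trimmed-mean factors 1 of the 9 photosystem I genes was called higher (PSAD-1), and with equal table totals 0 were higher and 1 lower. Only PSAG and PSBR of these 2 groups had 20 reads in a genotype. PSAG (AT1G55670, chr1:20802670-20803449, minus strand) had 12 and 4 reads (23.0 and 11.2 units) in ein5 dcl4 and 13 and 25 reads (2.41 and 6.42 units) in Col-0. PSBR (AT1G79040, chr1:29735952-29737009, plus strand), a small subunit near the water-oxidising side, had 1 and 2 reads (1.92 and 5.58 units) in ein5 dcl4 and 12 and 13 reads (2.22 and 3.34 units) in Col-0. Both thus had fewer reads in ein5 dcl4, which the larger worth of a read turned into more units for PSAG and overlapping units for PSBR. Neither was called, with 1.76 ± 0.57 for PSAG (SE; limma adjusted p = 0.0563) and 0.23 ± 1.09 for PSBR (0.872).

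The Rubisco genes each had fewer reads in the 2 ein5 dcl4 libraries together than in those of Col-0, but more units. RBCS1A, the main small-subunit gene of leaves, had 33 and 18 reads (63.2 and 50.2 units) in ein5 dcl4 and 45 and 51 reads (8.33 and 13.1 units) in Col-0. RBCS1B had 9 and 8 reads (17.2 and 22.3 units) in ein5 dcl4 and 7 and 17 reads (1.30 and 4.36 units) in Col-0. Both were called higher, by 2.32 ± 0.35 (SE; limma adjusted p = 0.00719) and 2.55 ± 0.55 (0.0179). RBCS1A lost its call without library a or library b of Col-0 (limma adjusted p = 0.0780 and 0.0573), and RBCS1B without any one library of these 2 genotypes (0.0639 to 0.127). RBCS2B had 5 and 13 reads (9.58 and 36.3 units) in ein5 dcl4 and 5 and 15 reads (0.926 and 3.85 units) in Col-0, and RBCS3B had 4 and 12 reads (7.66 and 33.5 units) in ein5 dcl4 and 17 and 20 reads (3.15 and 5.13 units) in Col-0. Library b of ein5 dcl4 was the higher one for both, and neither gene was called, with 2.70 ± 0.87 (limma adjusted p = 0.0547) and 1.78 ± 0.72 (0.101). Without library a of ein5 dcl4, RBCS3B was called at 2.77 (limma adjusted p = 0.0203). RCA (AT2G39730, chr2:16570746-16573692, minus strand) had 2 and 2 reads (3.83 and 5.58 units) in ein5 dcl4 and 5 and 15 reads (0.926 and 3.85 units) in Col-0, and with 0.88 ± 0.86 was not called (limma adjusted p = 0.436).

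Since the worth of a read differed so much between ein5 dcl4 and Col-0, the differences were computed again with trimmed-mean factors, with equal table totals and with equal miRNA totals. The median difference of all loci was 1.49 on the deposited scale, 0.44 with trimmed-mean factors, -1.63 with equal table totals and 1.54 with equal miRNA totals. For protein-coding loci it was 2.13, 1.67, 0.60 and 2.04 in the same order of scalings. The median of the 9 trimeric antenna genes was 4.31, 2.90, 1.18 and 5.06, above those of all loci and of protein-coding loci each time. Of these genes 9, 8, 6 and 9 were called higher. Of protein-coding loci 55.4%, 46%, 28.5% and 44.9% were called higher under these scalings. With equal table totals CAB2 (1.18; limma adjusted p = 0.0275), CAB3 (1.02; 0.0282), LHB1B2 (1.38; 0.0415), LHCB2.1 (2.31; 0.00221), LHCB2.2 (2.80; 0.00287) and LHCB3 (1.95; 0.00465) were still called. CAB1 (0.67; 0.0838) and LHB1B1 (1.00; 0.178) were not, and LHCB2.3 turned to -0.69 (0.244). The median of the other members was 2.28, 1.41, -0.04 and 3.0, below that of protein-coding loci with trimmed-mean factors and with equal table totals. With equal table totals 0 of 27 were called higher and 3 lower (20.8% of protein-coding loci were lower), among them PSBR at -2.36 (limma adjusted p = 0.0470) and RBCS1A at -0.89 (0.0457). All 5 Rubisco genes were negative on that scale and positive on the deposited one. With trimmed-mean factors 0 of 5 Rubisco genes were called, RBCS1A at 0.86 (limma adjusted p = 0.0942) and RBCS1B at 1.28 (0.0993) included, and PSBS at 1.03 (0.147) lost its call too.

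**Figure D3:**
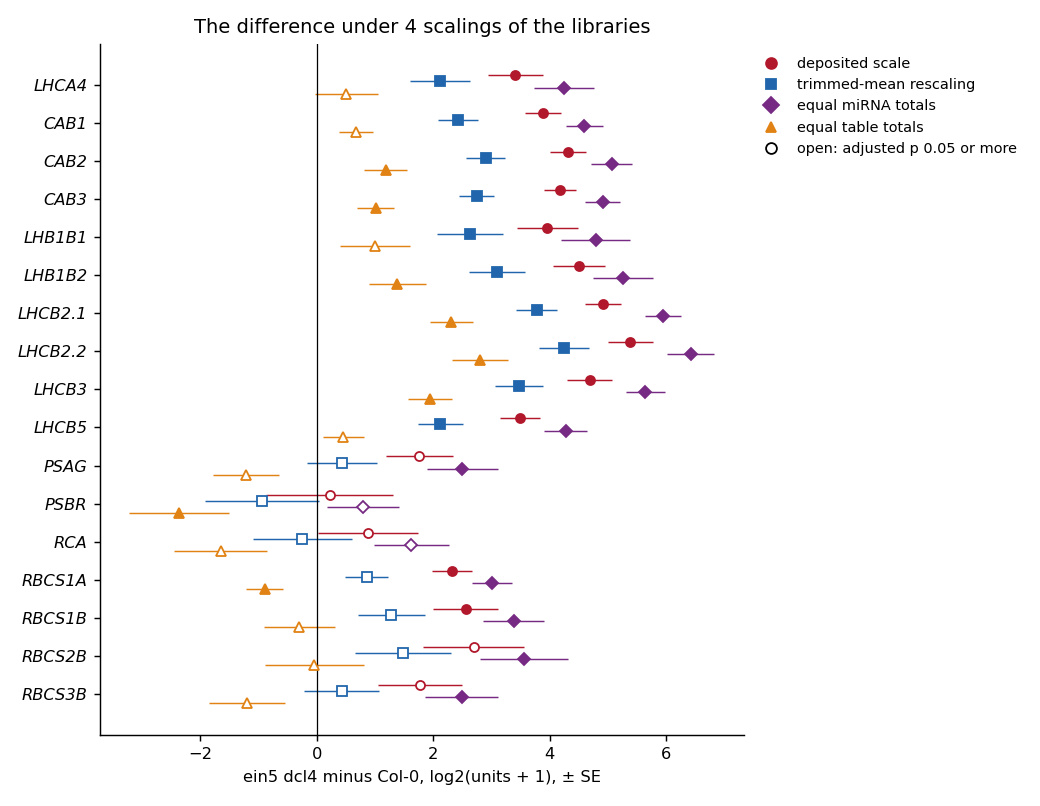
Difference between ein5 dcl4 and Col-0 (log2 of units plus 1, ein5 dcl4 minus Col-0) for the 17 member genes with at least 20 reads in a genotype, under the deposited scale and 3 other scalings. LHCB2.1, LHCB2.2 and LHCB3 stay above 1.9 under every scaling, while PSAG, PSBR, RCA and the 4 RBCS genes fall below 0 with equal table totals.

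As a count of loci whose 2 ein5 dcl4 libraries both lay on one side of both Col-0 libraries, 32 of the 42 members were higher and 0 lower in units, against 49.8% higher and 20.7% lower of all loci tested and 68.9% and 6.79% of protein-coding loci. In share of reads, 11 members were higher and 8 lower, against 33% and 40.9% of all loci tested and 47.7% and 16% of protein-coding loci. The 42 members include the 5 below the filter, whereas the percentages are of loci past it. None of these 5 was among the 32, while PSAH2 was among the 8 lower by share. Of the 9 trimeric antenna genes 8 were higher by share and 1, LHCB2.3, lower, while of the other 33 members 3 were higher and 7 lower. In the authors' deposited table, 16 of 35 members with an adjusted p were higher and 0 lower in ein5 dcl4 against Col-0, all 8 trimeric antenna genes other than LHCB2.3 among them. The authors' deposited table has 19.2% of all loci and 29.8% of protein-coding loci with an adjusted p called higher in this comparison. LHCB2.2 had a log2 fold change of 6.34 (adjusted p = 5.15e-12) in the authors' deposited table.

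The comparison of ein5 dcl4 dcl2 with ein5 dcl4 asks which of these small RNAs differ when DCL2 is lost as well. The worth of a read differed less here, with 1.71 and 1.9 units in ein5 dcl4 dcl2 and 1.92 and 2.79 in ein5 dcl4. Of the 37 members tested, 0 were higher in ein5 dcl4 dcl2 and 14 lower. At an unadjusted p under 0.05 limma gave 0 higher and 17 lower. With voom weights 0 were higher and 13 lower at an adjusted p under 0.05. The filter favoured loci with reads in ein5 dcl4 here too. With a filter of at least 10 reads in all instead, 0 of 34 members were higher and 15 lower. In the limma fit that called 14 members, 35.9% of all loci were lower and 11.3% higher, and 50.6% and 4.53% of protein-coding loci. Such shares were not computed for the unadjusted, voom, 10-read or left-out-library counts, which have no share to be read against. The members' count of 14 of 37 was thus below the share among protein-coding loci and near that among all loci. The median difference was -1.30 over the members, -2.10 over protein-coding loci and -1.33 over all loci. Without one of the 6 libraries, 9 to 13 members were lower, with 9 when library b of ein5 dcl4 was left out. Of the 9 trimeric antenna genes 8 were lower. Of the 28 other members tested, 6 were lower, among them 0 of 9 photosystem I genes and 0 of 5 Rubisco genes. The trimeric antenna genes stood out above by their high share in ein5 dcl4. This comparison uses the same ein5 dcl4 libraries, so a fall of these genes was favoured in advance.

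**Figure D4:**
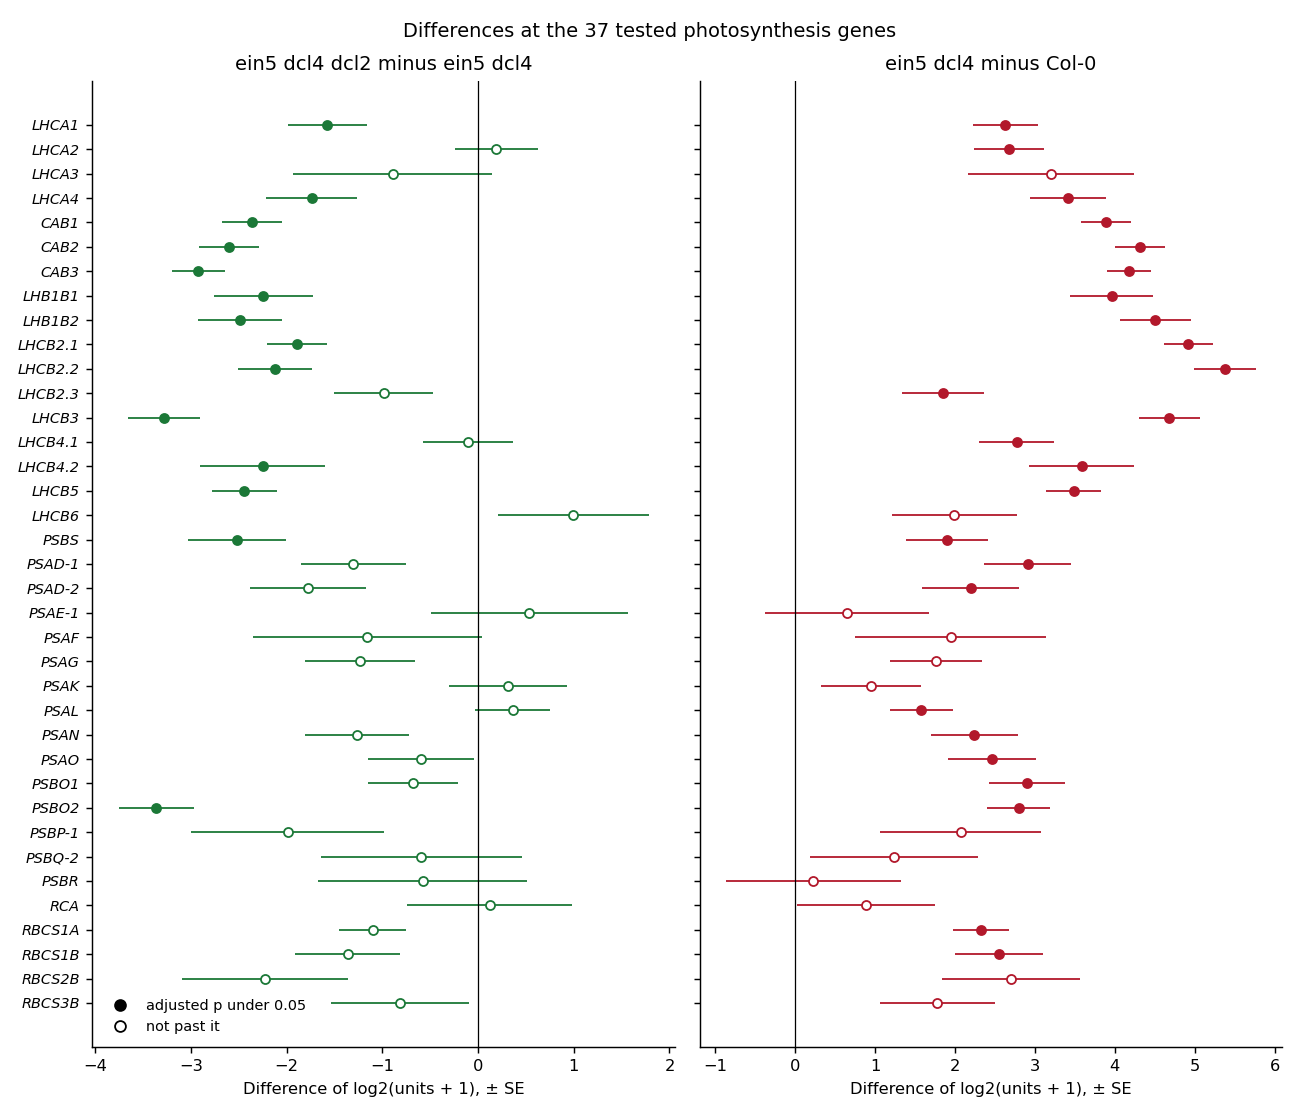
Difference in log2 of units plus 1 with its standard error for the 37 member genes tested, ein5 dcl4 dcl2 minus ein5 dcl4 on the left and ein5 dcl4 minus Col-0 on the right; filled points have a limma adjusted p under 0.05. The 2 comparisons share the ein5 dcl4 libraries; 14 genes are called lower on the left and 25 higher on the right.

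All 5 LHCB1 genes were lower in ein5 dcl4 dcl2 than in ein5 dcl4, with log2 differences of -2.24 to -2.92. CAB1 had 17 and 13 reads (29.0 and 24.7 units) in ein5 dcl4 dcl2 against the 80 and 47 reads (153 and 131 units) in ein5 dcl4. CAB2 had 9 and 11 reads (15.4 and 20.9 units) in ein5 dcl4 dcl2, against 111 and 117 units in ein5 dcl4. CAB3 had 8 and 9 reads (13.7 and 17.1 units) in ein5 dcl4 dcl2, against 122.6 and 122.7 units in ein5 dcl4. None of the 3 genes had a library of one genotype among those of the other. Such a gap in units was common in this comparison. It was seen as a lower value in 23 of the 42 members, 47.7% of all loci tested and 63.9% of protein-coding loci. As a higher value it was seen in 1 member, 16.9% of all loci and 6.26% of protein-coding loci. LHB1B1 had 5 and 8 reads (8.54 and 15.2 units) in ein5 dcl4 dcl2, against 63.2 and 53.0 units in ein5 dcl4. LHB1B2 had 10 and 15 reads (17.1 and 28.5 units) in ein5 dcl4 dcl2, against 151 and 109 units in ein5 dcl4. These 2 genes did not overlap between the genotypes either. The differences were -2.36 ± 0.31 for CAB1 (SE; limma adjusted p = 0.00472), -2.60 ± 0.31 for CAB2 (0.00386), -2.92 ± 0.28 for CAB3 (0.00220), -2.24 ± 0.52 for LHB1B1 (0.0208) and -2.48 ± 0.44 for LHB1B2 (0.0104). LHB1B1 lost its call without library a or b of ein5 dcl4 or library a of ein5 dcl4 dcl2 (limma adjusted p = 0.117, 0.102 and 0.0843), and LHB1B2 without library a of ein5 dcl4 (0.0660).

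LHCB2.1 had 9 and 8 reads (15.4 and 15.2 units) in ein5 dcl4 dcl2, against 57.5 and 61.4 units in ein5 dcl4. LHCB2.2 had 9 and 11 reads (15.4 and 20.9 units) in ein5 dcl4 dcl2, against 74.7 and 89.2 units in ein5 dcl4. LHCB3 had 4 and 2 reads (6.83 and 3.80 units) in ein5 dcl4 dcl2, against 61.3 and 55.8 units in ein5 dcl4. All 3 were lower in both libraries of ein5 dcl4 dcl2, LHCB3 with the fewest reads left. The differences were -1.89 ± 0.31 for LHCB2.1 (SE; limma adjusted p = 0.00811), -2.13 ± 0.39 for LHCB2.2 (0.0112) and -3.28 ± 0.38 for LHCB3 (0.00341). LHCB2.2 missed the threshold without library b of ein5 dcl4 (limma adjusted p = 0.0574). LHCB2.3, with 3 and 1 reads (5.12 and 1.9 units) in ein5 dcl4 dcl2 and 9.58 and 5.58 units in ein5 dcl4, was not called (-0.98; limma adjusted p = 0.186).

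LHCB5 had 5 and 4 reads (8.54 and 7.60 units) in ein5 dcl4 dcl2, against 55.5 and 41.8 units in ein5 dcl4, and was lower, with a difference of -2.44 ± 0.34 (SE; limma adjusted p = 0.00531). LHCA4 had 4 and 7 reads (6.83 and 13.3 units) in ein5 dcl4 dcl2, against 38.3 and 30.7 units in ein5 dcl4, and was lower, with a difference of -1.74 ± 0.47 (SE; limma adjusted p = 0.0326), a call that was lost without 5 of the 6 libraries in turn. LHCA1 (limma adjusted p = 0.0287) and LHCB4.2 (0.0392) were lower too. PSBS and PSBO2 had 0 reads in both ein5 dcl4 dcl2 libraries, where 3 reads would be worth 5.12 and 5.70 units, against 7.66 and 2.79 units (4 and 1 reads) and 7.66 and 11.2 units (4 and 4 reads) in ein5 dcl4. They were called lower with limma adjusted p of 0.0140 and 0.00357, and with so few reads no fold is given. PSBS and PSBO2 averaged 0.534 and 0.499 units in Col-0, so they passed the filter only through ein5 dcl4. The filter thus favoured these 2 calls in advance. LHCA2 (0.19), LHCB4.1 (-0.11) and LHCB6 (1.00) were not called, with limma adjusted p of 0.741, 0.870 and 0.332.

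RBCS1A had 17 and 12 reads (29.0 and 22.8 units) in ein5 dcl4 dcl2, against 33 and 18 reads (63.2 and 50.2 units) in ein5 dcl4. The units did not overlap, but the difference of -1.10 ± 0.35 (SE) had a limma adjusted p of 0.0506. RBCS1B had 3 and 5 reads (5.12 and 9.50 units) in ein5 dcl4 dcl2, RBCS2B 1 and 3 reads (1.71 and 5.70 units) and RBCS3B 6 and 4 reads (10.2 and 7.60 units), with differences of -1.36, -2.22 and -0.81 from ein5 dcl4 that did not pass (limma adjusted p = 0.103, 0.0931 and 0.386). PSAG had 3 and 4 reads (5.12 and 7.60 units) in ein5 dcl4 dcl2, against 23.0 and 11.2 units in ein5 dcl4 (-1.23; limma adjusted p = 0.143). PSBR had 0 and 4 reads (0 and 7.60 units) in ein5 dcl4 dcl2 and RCA had 7 and 1 (11.96 and 1.9 units). For these last 2 genes a single library set the mean, and neither differed from ein5 dcl4 by the test (limma adjusted p = 0.689 and 0.921).

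On the deposited scale the median of the 9 trimeric antenna genes was -2.36, against -2.10 for protein-coding loci. Under trimmed-mean factors, equal table totals and equal miRNA totals, 8, 7 and 9 of the 9 were lower. Their medians there were -1.93, -1.87 and -6.18, against -1.67, -1.30 and -2.33 for protein-coding loci and -0.62, -0.18 and -2.15 for all loci. The gap to protein-coding loci was largest with equal miRNA totals. As the trimeric antenna genes stood out by their high share in the same ein5 dcl4 libraries, such a gap was favoured in advance. For the other members the count lower was 3 of 27, 2 of 27 and 25 of 31. Of protein-coding loci 44.6%, 33.4% and 47.2% were lower under these scalings. In the authors' deposited table, which gives this comparison as ein5 dcl4 over ein5 dcl4 dcl2, 7 of 29 members with an adjusted p were higher in ein5 dcl4 (CAB1, CAB2, CAB3, LHB1B2, LHCB2.2, LHCB3 and LHCB5) and 0 lower. The share called higher in ein5 dcl4 in the authors' deposited table was 15.3% of all loci and 28.8% of protein-coding loci.

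The comparison of ein5 dcl4 dcl2 with Col-0 asks what remains different from wild type once DCL2 is missing too. On the deposited scale 2 of the 37 members were higher in ein5 dcl4 dcl2 and 0 lower, against 1.08% higher and 0.299% lower of all loci tested and 0.472% and 0.345% of protein-coding loci. At an unadjusted p under 0.05 limma gave 19 higher and 0 lower. With voom weights 23 were higher and 0 lower at an adjusted p under 0.05. Shares of all loci were not computed at these settings, so the counts of 19 and 23 cannot be set against the shares above. The 2 genes called by the adjusted limma test without voom weights were LHCB2.1 and LHCB2.2. LHCB2.1 had 15.4 and 15.2 units (9 and 8 reads) in ein5 dcl4 dcl2 against 0.741 and 1.28 units (4 and 5 reads) in Col-0. LHCB2.2 had 15.4 and 20.9 units (9 and 11 reads) against 0.555 and 1.54 units (3 and 6 reads). Neither gene overlapped between the genotypes in reads or in units. The differences were 3.03 ± 0.31 for LHCB2.1 (SE; limma adjusted p = 0.0231) and 3.25 ± 0.39 for LHCB2.2 (0.0345). Over the 15 alternatives they ran from 0.38 to 3.93 and from 0.58 to 4.22, and the calls were lost in 8 and in 10 of them. Leaving out any 1 library brought the count to 0 or 1.

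Most other directions in this comparison depended on the scale. The median of the 37 members was 1.26 on the deposited scale, with 34 positive, but with equal table totals 8 of 36 members were positive, 0 were called higher and 7 lower, while the median of all loci was -1.40 and 0.606% of protein-coding loci were called higher and 21.5% lower. With equal miRNA totals 0 members were higher and 3 lower, CAB1, CAB3 and RBCS1A, against 0.00766% and 3.15% of protein-coding loci. CAB1 had 17 and 13 reads in ein5 dcl4 dcl2 and 38 and 41 in Col-0, and RBCS1A 17 and 12 against 45 and 51. These 2 genes had fewer reads but more units in ein5 dcl4 dcl2, 29.0 and 24.7 against 7.04 and 10.5 units for CAB1 and 29.0 and 22.8 against 8.33 and 13.1 units for RBCS1A.

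Other genes of photosynthesis, listed by pathway, were read from the same fit. Between ein5 dcl4 and Col-0, 7 of 9 tested genes of chlorophyll synthesis were higher (12 listed), 7 of 11 of the Calvin-Benson cycle (13 listed), 3 of 4 of electron transport and ATP synthase (8 listed) and 1 of 4 other photosystem II subunits (6 listed), with 0 lower, against the 55.4% of protein-coding loci above. With equal table totals these counts were 4 of 8, 2 of 9, 1 of 4 and 1 of 4, against 28.5% of protein-coding loci. None of 3 relatives of the antenna genes passed the filter. GUN5, the large subunit of magnesium chelatase at the entry to chlorophyll synthesis, had 35 and 21 reads (67.0 and 58.6 units) in ein5 dcl4 and 6 and 11 reads (1.11 and 2.82 units) in Col-0. GUN4, which stimulates that enzyme, had 20 and 11 reads (38.3 and 30.7 units) in ein5 dcl4 and 4 and 1 reads (0.741 and 0.257 units) in Col-0. PORB, which reduces protochlorophyllide in the light, had 25 and 16 reads (47.9 and 44.6 units) in ein5 dcl4 and 25 and 14 reads (4.63 and 3.59 units) in Col-0. GUN5 and GUN4 were higher in ein5 dcl4 in reads as well as in units, PORB in units alone. The differences were 4.49 ± 0.40 for GUN5 (SE; limma adjusted p = 0.00224), 4.58 ± 0.41 for GUN4 (0.00227) and 3.22 ± 0.31 for PORB (0.00268). With equal table totals GUN5 (1.65; limma adjusted p = 0.0169) and GUN4 (2.36; 0.00649) were still called, and PORB (0.14; 0.753) was not.

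Of the Calvin-Benson list, AT3G60750 had 29 and 16 reads in ein5 dcl4 and 7 and 7 reads in Col-0 (4.33 ± 0.47, SE; limma adjusted p = 0.00357). PRK, phosphoribulokinase, had 8 and 10 reads in ein5 dcl4 and 7 and 4 reads in Col-0 (3.33; limma adjusted p = 0.00473). GAPB, a subunit of the plastid glyceraldehyde phosphate dehydrogenase, had 5 and 6 reads in ein5 dcl4 and 0 and 2 reads in Col-0 (limma adjusted p = 0.00524). In reads the 3 genes were all higher in both ein5 dcl4 libraries than in either Col-0 library, PRK by the narrowest margin. ATPC1, a subunit of the chloroplast ATP synthase, had 10 and 8 reads in ein5 dcl4 and 4 and 2 reads in Col-0 (3.74; limma adjusted p = 0.00694), the plastocyanin gene PETE1 had 6 and 4 against 5 and 1 (2.99; 0.00738) and the ferredoxin gene FED A 15 and 5 against 5 and 7 (3.18; 0.00844). PSB27, a photosystem II assembly factor, had 7 and 2 reads in ein5 dcl4 and 1 and 0 reads in Col-0 (limma adjusted p = 0.00839). With 0 reads in ein5 dcl4 dcl2, it passed the filter only through ein5 dcl4. With equal table totals AT3G60750, GAPB, ATPC1 and PSB27 were still called higher in ein5 dcl4, while PRK (0.71; limma adjusted p = 0.236), PETE1 (0.82; 0.263) and FED A (0.52; 0.400) were not. In ein5 dcl4 dcl2 against ein5 dcl4, 5 of 9 chlorophyll genes, 5 of 11 Calvin-Benson genes, 4 of 4 electron transport and ATP synthase genes and 1 of 4 photosystem II subunits were lower, against 50.6% of protein-coding loci. With equal table totals these counts were 4 of 8, 3 of 9, 0 of 4 and 1 of 4, against 33.4% of protein-coding loci. GUN5 had 4 and 3 reads in ein5 dcl4 dcl2 (-3.14; limma adjusted p = 0.00463), GUN4 4 and 2 (-2.52; 0.00810), AT3G60750 8 and 3 (-2.36; 0.0135) and PRK 0 and 0 (0.00219). GAPB, with 4 and 5 reads, was not called (-0.59; limma adjusted p = 0.315). These genes were named for their difference between ein5 dcl4 and Col-0, which uses the same ein5 dcl4 libraries, so a fall was favoured in advance.

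A list of 7 plastid-encoded loci was set beside the nuclear genes. They had 474 and 340 reads in ein5 dcl4 dcl2, 72 and 95 in ein5 dcl4, and 601 and 476 in Col-0, so ein5 dcl4 held the fewest. On the deposited scale, 3 of the 7 were higher in ein5 dcl4 dcl2 than in ein5 dcl4, against 11.3% of all loci, and 1 was higher in ein5 dcl4 against Col-0, against 38.7% of all loci. Both directions turned with the scale. With equal table totals 6 were higher in ein5 dcl4 dcl2 than in ein5 dcl4 (11.7% of all loci) and 7 of 7 were lower in ein5 dcl4 against Col-0 (49.7%), while with equal miRNA totals 4 were lower in ein5 dcl4 dcl2 than in ein5 dcl4 (46.4%). ATCG00020 had 243 and 188 reads in ein5 dcl4 dcl2, 43 and 43 in ein5 dcl4, and 238 and 180 in Col-0. It was higher in ein5 dcl4 dcl2 than in ein5 dcl4 by 1.94 (limma adjusted p = 0.00489), and in ein5 dcl4 it was higher than in Col-0 by 1.12 in units (0.0227) while its reads were fewer. With equal miRNA totals the difference between ein5 dcl4 dcl2 and ein5 dcl4 was -2.08 (limma adjusted p = 0.000820), and with equal table totals that between ein5 dcl4 and Col-0 was -2.19 (0.000958).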

How the data were processed

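Small RNAs bound to AGO1 were sequenced from 6 libraries, 2 per genotype. The authors deposited 1 table with a mean signal per locus and genotype, per the file headers in TPM, although the column sums differ between genotypes. The deposited table also gives the authors' log2 fold changes and p-values for 2 comparisons, used here only where named. Bowtie 1.2.2, SAMtools 1.9, DESeq2 and TAIR10 are named in the submitters' processing notes, and per the labels the second read of a pair was not used. Read lengths, multi-mapping, strand and filters: not given in the sources used here.

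Each mean is a sum of whole multiples of 2 steps, 1 per library, so the reads of both libraries were recovered (100% of values above 0, relative tolerance 1e-14). R 4.3.3 and limma 3.58.1 were used to test log2(units + 1), with a trended prior, all 6 libraries in 1 fit, loci averaging 1 unit or more (11376, of which 7833 protein-coding) and two-sided p-values adjusted by Benjamini and Hochberg. Each locus has 3 residual degrees of freedom, to which the prior over all loci adds 2.16, so the p-values rest on few samples. Replicates differed by more than counting noise: chi-square over its degrees of freedom was 5.82 in ein5 dcl4 dcl2, 5.26 in ein5 dcl4 and 3.18 in Col-0. The fit and the recovery were also run on simulated data. The spread simulated for the fit was not set from these libraries, so it does not check the p-values under their noise.

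Values per library are given for members with at least 20 reads in the 2 libraries of a genotype together, other members are given by counts, and each list of other genes names at most 3, those with the smallest adjusted p in ein5 dcl4 against Col-0. The members and lists were chosen with earlier results of these data known. Alternatives were other scalings, pseudocounts and filters, voom weights and leaving out a library. Gene models and sequences come from RefSeq TAIR10.1, where all 42 members were matched.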

Additional observations from a re-analysis of the deposited data

How the results depend on the processing

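No paired analysis was possible because the mean columns carry no replicate numbers. Shares of all loci called were computed only for the deposited scale and the 3 other scalings. The counts below under other filters or pseudocounts, with voom or without a library thus have no such share beside them. They show how the members' counts moved with the setting and do not set the members apart from other loci. Members called higher in ein5 dcl4 against Col-0 numbered 6 (and 3 lower) with equal table totals, 11 of the 12 tested with a mean of at least 10 units, and 8 (without library b of Col-0) to 25 without 1 library. Members lower in ein5 dcl4 dcl2 than in ein5 dcl4 numbered 9 with equal table totals, 34 with equal miRNA totals and 9 to 13 without 1 library. Members higher in ein5 dcl4 dcl2 than in Col-0 numbered 0 with equal table totals (7 lower) or miRNA totals (3 lower), 1 with a pseudocount of 0.1 or no filter, 6 of 12 with a mean of at least 10 units, 4 with at least 10 reads, 23 with voom and 0 to 1 without 1 library. The members' mean share of reads in ein5 dcl4 dcl2, ein5 dcl4 and Col-0 was 1.30%, 0.0518% and 0.235% of protein-coding reads, 0.0666%, 0.122% and 0.0660% without the 10 largest loci, and 0.0128%, 0.0259% and 0.0228% with 1 locus per family, an alternative chosen after seeing the data. Thus the order of the genotypes depends on the denominator.

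Signs turned for single genes. For ein5 dcl4 minus Col-0, equal table totals gave PSAG -1.21, PSBR -2.36, RCA -1.65, RBCS1A -0.89, RBCS1B -0.30, RBCS2B -0.040 and RBCS3B -1.19, and trimmed-mean factors gave PSBR -0.94 and RCA -0.25. Without 1 library PSBR ran from -0.36 to 0.82. For ein5 dcl4 dcl2 minus ein5 dcl4, equal miRNA totals gave RCA -2.86, and without 1 library PSBR ran from -2.13 to 0.97, RCA from -0.96 to 1.2 and RBCS3B from -1.81 to 0.18. For ein5 dcl4 dcl2 minus Col-0, equal table totals and equal miRNA totals gave LHCA4 -0.71 and -0.96, CAB1 -1.19 and -1.58, CAB2 -0.91 and -1.26, CAB3 -1.39 and -1.69, LHB1B1 -0.72 and -1.01, LHB1B2 -0.60 and -0.99, LHCB3 -0.73 and -0.86, LHCB5 -1.45 and -1.60, PSAG -1.94 and -2.00, RCA -1.2 and -1.24, RBCS1A -1.52 and -1.90, RBCS1B -1.15 and -1.30, RBCS2B -1.64 and -1.53, and RBCS3B -1.57 and -1.75. Trimmed-mean factors gave PSAG -0.40 and RBCS2B -0.30, and a pseudocount of 5 gave PSBR 0.033. Without 1 library PSAG ran from -0.031 to 1.09, PSBR from -1.9 to 1.2, RCA from -0.076 to 2.08 and RBCS2B from -0.19 to 1.15. The cause of these turns was not tested.

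In all 15 alternatives CAB2, CAB3, LHB1B2, LHCB2.1, LHCB2.2 and LHCB3 were higher in ein5 dcl4 against Col-0, and CAB1, CAB2, CAB3, LHCB2.1, LHCB3 and LHCB5 were lower in ein5 dcl4 dcl2 than in ein5 dcl4. Of the 42 members, 25 had fewer than 20 reads in every genotype, which limits the precision of their values.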
